A study of Mus musculus with 2 samples.

Results

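The 10 genes described here are transcription factors that specify or mark the cell lineages of the heart: Tcf21, Wt1, Tbx18, Tbx20, Tbx5, Gata4, Gata6, Nkx2-5, Hand2 and Mef2c. They were taken by symbol from the 32245 gene features of a mouse heart single-nucleus RNA-seq series, and all 10 were present in both libraries. Of the 2 libraries, CF-KI came from mice of genotype Tcf21-MerCreMer;Nlrp3-A350V/A350V, and the control from Tcf21-MerCreMer;Nlrp3-WT/WT. Both groups were male, of the strain C57Bl6/J, 3.5 months old and injected with tamoxifen, so the control carried the Cre driver and the drug as well. CF-KI is named for constitutive NLRP3 activity in cardiac fibroblasts, the cells in which the driver is meant to act, and the study notes state that the Nlrp3 allele is silent in cells without Cre. How many hearts went into each library, and which parts of the heart, is not given in the sources used here.

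MerCreMer is a Cre recombinase held inactive by mutated oestrogen receptor domains until tamoxifen binds. Here it is driven from Tcf21, which encodes a basic helix-loop-helix (bHLH) factor needed for epicardial cells to become cardiac fibroblasts and kept on in adult fibroblasts. Wt1, a zinc finger factor, and Tbx18, a T-box repressor, mark the epicardium, the mesothelial cover of the heart. Gata4, Gata6, Nkx2-5, Tbx5, Tbx20, Hand2 and Mef2c form the network that builds heart muscle in the embryo, and several of them also act in endocardium, fibroblasts or vessels. The question addressed is where each factor was detected, how far Tcf21 RNA reached beyond fibroblasts, and how the levels compared between the libraries.

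The promoters of the gene that carries the driver, of the other factor that was highest in fibroblasts, and of the factor with the largest difference in cardiomyocytes are shown as the 250 bases before the RefSeq start (build GRCm38.p6, 5′ to 3′ on the gene's strand). RefSeq promoters were at hand for 6 of the 10 genes. Capitals mark the bHLH core CANNTG and the GATA core AGATAA, searched on both strands, and the marked matches do not overlap each other.
Tcf21: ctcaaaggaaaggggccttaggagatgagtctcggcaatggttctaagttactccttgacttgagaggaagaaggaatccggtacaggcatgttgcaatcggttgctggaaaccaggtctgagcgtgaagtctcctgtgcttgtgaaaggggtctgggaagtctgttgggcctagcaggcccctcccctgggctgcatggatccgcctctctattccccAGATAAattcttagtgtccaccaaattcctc
Tbx20: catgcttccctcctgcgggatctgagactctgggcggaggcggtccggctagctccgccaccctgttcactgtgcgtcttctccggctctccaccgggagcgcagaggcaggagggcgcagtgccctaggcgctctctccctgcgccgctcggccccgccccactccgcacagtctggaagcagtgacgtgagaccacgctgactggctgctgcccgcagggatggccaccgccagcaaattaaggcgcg
Hand2: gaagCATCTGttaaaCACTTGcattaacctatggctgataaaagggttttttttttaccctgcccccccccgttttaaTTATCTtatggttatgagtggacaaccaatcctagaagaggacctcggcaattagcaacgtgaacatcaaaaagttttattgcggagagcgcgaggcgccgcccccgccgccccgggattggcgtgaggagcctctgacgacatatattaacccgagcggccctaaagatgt
The Tcf21 window (chr10:22820144-22820393, minus strand) held 1 AGATAA and no CANNTG. The Tbx20 window (chr9:24774304-24774553, minus strand) held neither. The Hand2 window (chr8:57320733-57320982, plus strand) held 2 CANNTG and 1 AGATAA, the latter on the opposite strand. Among 32851 promoter windows of the same length, 66.2% held CANNTG and 9.99% held AGATAA, and the matches are given as a description only.

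The CF-KI library held 15077 barcodes and 21603653 UMIs (unique molecular identifiers, 1 per captured RNA molecule) and the control 11257 barcodes and 18040776 UMIs. Median depth was 1115 and 1158 UMIs per barcode, but mitochondrial UMIs took a median of 14.2% of a CF-KI barcode and 3.46% of a control barcode. After removal of likely doublets 13175 and 10193 barcodes remained, and 46 barcodes occurred in both libraries. Clusters were named from marker genes, and 11 classes had at least 50 nuclei in each library. The 10 fibroblast, 10 mesothelial and 10 macrophage markers were each highest in their own class in both libraries, against 10 of the 12 cardiomyocyte and 8 of the 10 endothelial markers. A cluster of 1784 CF-KI and 201 control barcodes with a median mitochondrial share above 50% stayed unnamed. The control also held 111 airway epithelial-like nuclei, a class with none in CF-KI, so tissue other than heart was present in that library. Levels are CPM, in which a gene's UMIs in a class are divided by that class's total of non-mitochondrial UMIs and put on a common scale. Parentheses hold 95% exact Poisson intervals. There is 1 library per group, so no test or p-value is given and the intervals cover counting error only. In droplet data, RNA freed from other cells adds UMIs to every class. The 12 cardiomyocyte markers stood at a median of 29.8% of their cardiomyocyte level in CF-KI fibroblast-like nuclei and 11.3% in control ones. Single markers varied widely, with 9.63% the lowest and 172.6% the highest for CF-KI. The control values were 3.94% and 99.55%. Whether these levels stem from freed RNA or from doublets that were not removed was not tested. The part of freed RNA in the differences below was not tested either.

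**Figure D1:**
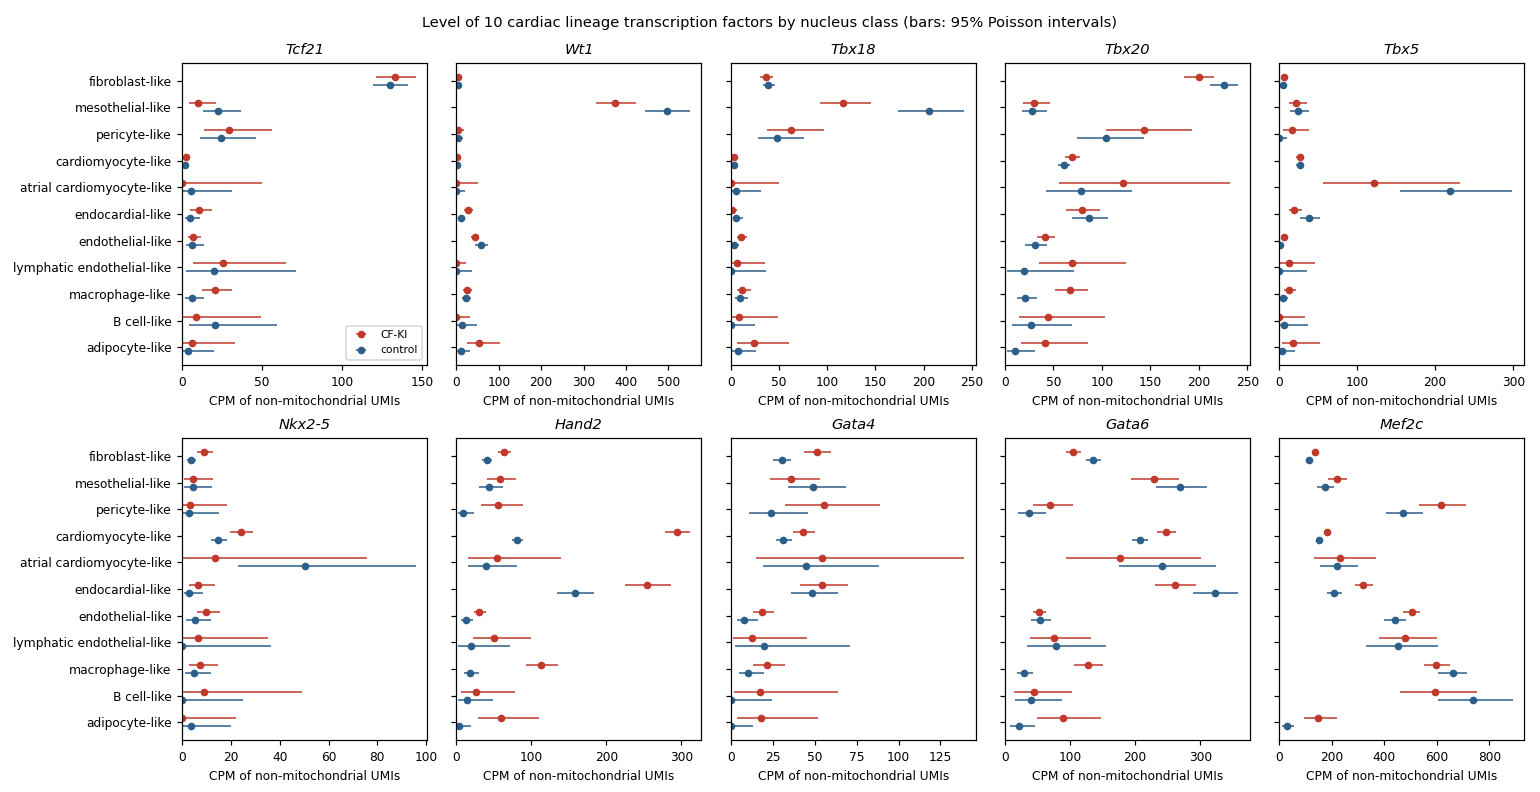
Level of each factor (x axis, CPM of non-mitochondrial UMIs, own scale per panel) in 11 nucleus classes (y axis) for CF-KI (red) and control (blue), with 95% Poisson intervals as bars. Tcf21 stands out in fibroblast-like nuclei and Wt1 in mesothelial-like nuclei in both libraries, and Hand2 in cardiomyocyte-like nuclei is at 294.6 CPM in CF-KI against 81.1 in the control.

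Tcf21 (chromosome 10, 22817281 to 22820174 in GENCODE on GRCm38) was highest in fibroblast-like nuclei of both libraries. There were 449 Tcf21 UMIs in 3812 CF-KI nuclei, or 133.0 CPM (121.0 to 145.9), and 527 in 3504 control nuclei, or 129.8 CPM (119.0 to 141.4). Of the 11 classes compared, pericyte-like nuclei came second. They were 4.52-fold lower in CF-KI and 5.38-fold lower in the control, and their interval did not overlap that of fibroblast-like nuclei in either library. The platelet-like cluster had 10 control barcodes, under the minimum of 50, and was not compared. Its 90 CF-KI barcodes held 5 Tcf21 UMIs, or 68.3 CPM, with an interval (22.2 to 159.3) that overlapped that of fibroblast-like nuclei. A Tcf21 UMI was found in 10.8% of CF-KI and 12.9% of control fibroblast-like nuclei, at median depths of 924 and 1024 UMIs, so most fibroblast-like nuclei had none. In cardiomyocyte-like nuclei, at 1676 and 2330 UMIs, the share was 0.371% and 0.375%. Thinned to 500 UMIs per nucleus, the fibroblast-like shares were 6.53% and 5.70%.

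The log2 ratio of Tcf21 in fibroblast-like nuclei, CF-KI over control, was 0.04 (-0.15 to 0.22), an interval that spans equality. The 10 fibroblast markers of the same nuclei were all lower in CF-KI, with a median log2 ratio of -0.54. Fibroblast-like nuclei fell into a pair of clusters. The first, led by Rgs17 and Dnm3os, held 2565 CF-KI and 1684 control nuclei, and 4 of the 10 fibroblast markers were raised in it. The second, led by Myoc, Has2 and Pi16, held 1247 and 1820, with all 10 markers raised. The class values, those of the 10 markers included, thus rest on a different mix of the clusters in each library. Tcf21 was at 122.5 CPM in the first and 145.9 in the second in CF-KI, and at 110.3 and 140.3 in the control. The log2 ratio of the second over the first was 0.25 (-0.02 to 0.53) in CF-KI and 0.35 (0.07 to 0.63) in the control. The driver gene was thus detected in both clusters.

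Outside fibroblast-like nuclei Tcf21 was sparse: 80 UMIs over all other named classes in CF-KI and 58 in the control. That is 5.88% of the fibroblast-like level in CF-KI (4.58 to 7.47) and 4.24% in the control (3.18 to 5.57). For scale, the 10 fibroblast markers measured in the same way spanned 8.88% to 17.5% in CF-KI, and 3.60% to 10.7% in the control. All 10 lay above the Tcf21 interval in CF-KI, and 5 did in the control. These percents, here and below, divide by the fibroblast-like level. That level was lower in CF-KI for all 10 markers, by a median log2 ratio of -0.54, but was 133.0 against 129.8 CPM for Tcf21. Marker percents of the 2 libraries thus do not share a base. The Tcf21 value depended on the removal of doublets: with them kept, CF-KI had 8.72% and the control 7.80%. With at most 5% mitochondrial UMIs the CF-KI value was 2.20% (0.83 to 5.997), from 9 fibroblast-like and 11 other UMIs. That pool had another class mix: 1625 CF-KI nuclei were cardiomyocyte-like, against 96 endothelial-like, 33 macrophage-like and 25 pericyte-like. Tcf21 was there at 31.1 CPM in macrophage-like nuclei (3 UMIs) and 42.5 in pericyte-like nuclei (2 UMIs). No CF-KI UMI remained in endothelial-like, endocardial-like or mesothelial-like nuclei. Without mesothelial-like nuclei, an alternative chosen after seeing the data, it was 5.75% and 3.29%.

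Tcf21 was lowest in cardiomyocyte-like nuclei among the classes with a UMI, with 9 UMIs in each library, or 2.07 CPM (0.94 to 3.92) in CF-KI and 1.61 CPM (0.74 to 3.05) in the control. Of the 59 CF-KI atrial cardiomyocyte-like nuclei none had a Tcf21 UMI, which allows a share with a UMI of up to 5.08% and a level of up to 40.7 CPM, and 1 of 109 had one in the control. Over all cardiomyocyte-like nuclei, atrial ones included, Tcf21 was at 1.53% of its fibroblast-like level in CF-KI (0.69 to 2.92), and all 10 markers lay above that interval, at 3.95% to 9.85%. In the control Tcf21 was at 1.33% (0.64 to 2.47) and the markers at 1.58% to 3.32%, with 2 of them above the interval. Every one of the 9 CF-KI and 7 of the 8 control cardiomyocyte-like nuclei with Tcf21 also held a UMI of a fibroblast marker, but so did 93.3% and 87.4% of those without Tcf21. By point value Tcf21 was thus below each of the 10 markers in these nuclei in both libraries, but beyond its counting interval for all 10 in CF-KI only.

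Pericyte-like nuclei had 9 Tcf21 UMIs in each library, or 29.4 CPM (13.4 to 55.8) in CF-KI and 24.1 CPM (11.04 to 45.83) in the control. This was 22.1% and 18.6% of the fibroblast-like level. The fibroblast markers in that class spanned 12.6% to 53.6% in CF-KI, with 5 of 10 below the Tcf21 value and none below its interval. They spanned 6.16% to 61.2% in the control, with a median of 9.61%, 7 below the Tcf21 value and 2 below its interval (8.46 to 35.6). The highest marker was Ddr2 in both libraries. Mesothelial-like nuclei had 7 and 16 UMIs, or 10.1 and 22.6 CPM. In the control that was 17.4% of the fibroblast-like level (9.86 to 28.5), with 4 markers below the interval and 3 above. In CF-KI it was 7.61% (3.04 to 15.8), with no marker below and 6 above. In macrophage-like nuclei 20 UMIs (20.3 CPM) stood in CF-KI against 5 (5.84 CPM) in the control. The median of the fibroblast markers there was 17.4% in CF-KI against 7.39% of the fibroblast-like level, which was itself lower in CF-KI. In CPM each marker was also higher in CF-KI, by less than Tcf21, from Col3a1 at 329.2 against 299.9 to Ddr2 at 46.7 against 19.8. By point value, Tcf21 lay above all 10 markers in control B cell-like nuclei (15.6% against at most 9.49%, from 3 UMIs), control lymphatic endothelial-like nuclei (15.2% against at most 14.6%, from 2 UMIs) and the control part of the unnamed cluster (13.7% against at most 12.4%, from 3 UMIs). In none of the compared classes, nor in the unnamed cluster, were all 10 markers below the Tcf21 interval in either library. Single high markers made that bar hard to meet. In the control, Ddr2 was at 61.2% in pericyte-like nuclei and Col3a1 at 85.4% in mesothelial-like nuclei. Intervals from a few UMIs are also wide, so no conclusion is drawn from this count. These levels are those at the time the nuclei were isolated. Cre RNA and recombination were not analysed here. A gene on the opposite strand, Gm10824, overlaps Tcf21 and had 22 and 15 UMIs in all, and the use of strand in counting is not given in the sources used here.

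**Figure D2:**
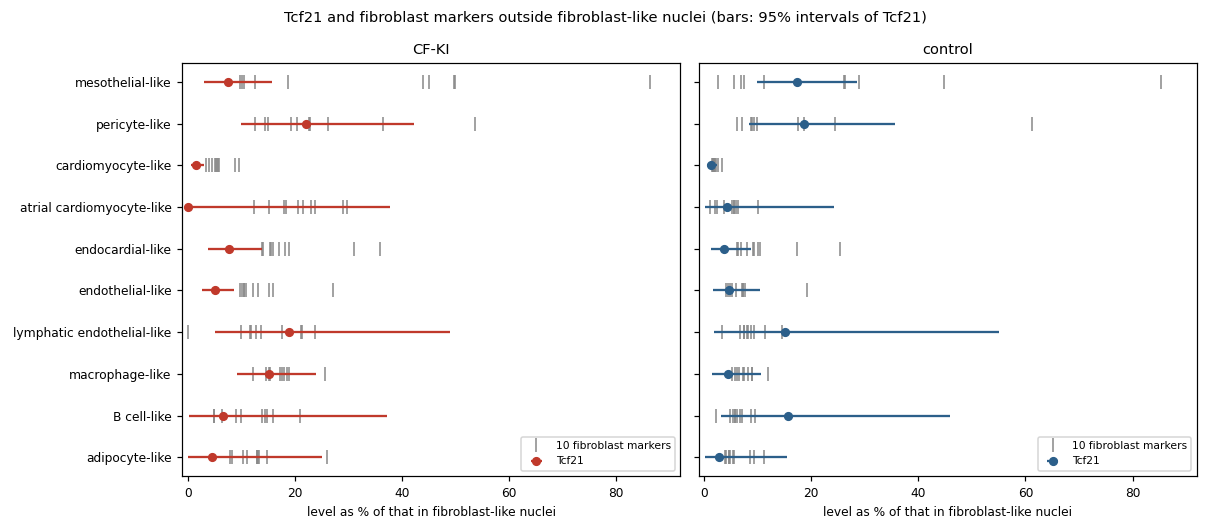
Level in each class as a percent of that in fibroblast-like nuclei of the same library (x axis) for Tcf21 (points, with 95% intervals) and 10 fibroblast markers (grey ticks), by class (y axis) and library (panels). In cardiomyocyte-like nuclei Tcf21 lies at 1.55% in CF-KI and 1.24% in the control, below all 10 markers.

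Wt1 (chromosome 2, 105126529 to 105173616) was highest in mesothelial-like nuclei, the class named from mesothelial markers. There were 259 Wt1 UMIs in CF-KI, or 374.2 CPM (330.1 to 422.7), and 352 in the control, or 496.1 CPM (445.6 to 550.7). A Wt1 UMI was found in 31.4% and 42.1% of these nuclei, at median depths of 1014 and 1050 UMIs, and in 0.394% and 0.542% of fibroblast-like nuclei. Wt1 is also known from vessels, and endothelial-like nuclei had 43.4 CPM (34.6 to 53.8) in CF-KI and 58.2 (44.1 to 75.4) in the control. That level was not particular to them: adipocyte-like nuclei had 53.6 CPM (24.5 to 101.7) in CF-KI and 10.7 (2.21 to 31.3) in the control. Macrophage-like nuclei had 24.4 and 22.2 CPM. Fibroblast-like nuclei had 4.74 CPM (2.71 to 7.70) and 4.68 CPM (2.82 to 7.31). Cardiomyocyte-like nuclei had 2.29 CPM (1.10 to 4.22) in CF-KI, with an interval that overlapped that of fibroblast-like nuclei, and 0.715 CPM (0.195 to 1.83) in the control, where the intervals did not overlap.

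Tbx18 (chromosome 9, 87702800 to 87731260) was also highest in mesothelial-like nuclei, with 117.0 CPM (93.0 to 145.5) in CF-KI and 205.8 CPM (173.7 to 242.0) in the control. Pericyte-like nuclei followed at 62.1 and 48.3 CPM, and fibroblast-like nuclei at 36.4 and 39.2 CPM. The intervals of the pericyte-like and fibroblast-like levels overlapped in both libraries. In CF-KI the mesothelial-like and pericyte-like intervals overlapped as well. Cardiomyocyte-like nuclei had 3.44 and 3.40 CPM.

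Both epicardial factors were lower in CF-KI mesothelial-like nuclei. The log2 ratio was -0.41 (-0.64 to -0.17) for Wt1 and -0.81 (-1.22 to -0.41) for Tbx18. Of the 1061 genes with at least 200 UMIs in this class, 87.8% had a higher ratio than Wt1 and 98.6% a higher ratio than Tbx18. The 10 mesothelial markers had a median of -0.13 and ranged from -0.73 to 0.40, with 4 higher and 6 lower. At most 5% mitochondrial UMIs, only 82 CF-KI nuclei of the class remained and Tbx18 had a log2 ratio of -1.23 (-2.28 to -0.33). Wt1 had -0.41 with an interval that spanned equality (-0.93 to 0.08). Thinned to 500 UMIs per nucleus, Tbx18 was at -1.54 (-2.31 to -0.82). Only the control library held airway epithelial-like nuclei, and whether its mesothelial-like nuclei all came from the heart was not tested.

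Tbx20 (chromosome 9, 24718138 to 24774303) is a T-box factor best known from heart muscle and endocardium, yet its highest level was in fibroblast-like nuclei. They had 674 UMIs in CF-KI, or 199.7 CPM (184.9 to 215.3), and 916 in the control, or 225.6 CPM (211.2 to 240.7). Cardiomyocyte-like nuclei had 69.5 CPM (61.9 to 77.8) and 60.8 CPM (54.5 to 67.6), and endocardial-like nuclei 79.4 and 86.5 CPM. Pericyte-like nuclei stood between, at 143.7 and 104.6 CPM, and their interval overlapped that of fibroblast-like nuclei in CF-KI only. Within fibroblasts Tbx20 was higher in the Myoc and Pi16 cluster than in the other, by a log2 ratio of 0.54 (0.32 to 0.76) in CF-KI and 0.49 (0.27 to 0.70) in the control. The class level was slightly lower in CF-KI, with a log2 ratio of -0.18 (-0.32 to -0.03). That interval spanned equality with at most 20% mitochondrial UMIs, at -0.14 (-0.30 to 0.01). Within the Myoc and Pi16 cluster Tbx20 was at 241 CPM in CF-KI against 250.7 in the control. In the other cluster it was at 166 against 179.1 CPM, and the intervals of the libraries overlapped in both clusters. The part of the cluster mix in the class ratio was not tested.

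Tbx5 (chromosome 5, 119832668 to 119885219), a T-box factor needed for atria and the conduction system, was highest in atrial cardiomyocyte-like nuclei. There were 9 UMIs in 59 CF-KI nuclei, or 122.2 CPM (55.9 to 231.9), and 39 in 109 control nuclei, or 218.5 CPM (155.4 to 298.8). The other cardiomyocyte-like nuclei had 26.4 and 26.3 CPM. The atrial level exceeded theirs by a log2 ratio of 2.21 (1.05 to 3.19) in CF-KI and 3.06 (2.51 to 3.57) in the control. Between the libraries the atrial log2 ratio of -0.84 spanned equality (-2.07 to 0.23). The atrial class, on which atrial values of Nkx2-5 and Hand2 below also rest, had median mitochondrial shares of 23.1% in CF-KI and 1.73% in the control. It also depended on the setting. With at most 5% mitochondrial UMIs no cluster was named atrial. With at most 20% a cluster of 1207 CF-KI and 356 control nuclei was, with 4 of the 9 atrial markers raised. Endocardial-like nuclei showed 19.6 CPM of Tbx5 in CF-KI against 37.9 in the control, a log2 ratio of -0.95 (-1.79 to -0.15) from 21 and 39 UMIs. With at most 20% mitochondrial UMIs it was -0.68 (-1.54 to 0.13), which spans equality, and with at most 5% no CF-KI UMI remained. Fibroblast-like nuclei had 6.81 and 4.93 CPM.

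Nkx2-5 (chromosome 17, 26838664 to 26845009), a homeobox factor of the myocardial lineage, was sparse even in muscle. Cardiomyocyte-like nuclei had 105 UMIs in CF-KI, or 24.1 CPM (19.7 to 29.2), and 82 in the control, or 14.7 CPM (11.7 to 18.2). Atrial cardiomyocyte-like nuclei had 9 UMIs in the control, or 50.4 CPM, above the other cardiomyocyte-like nuclei by a log2 ratio of 1.78 (0.60 to 2.78). With 1 UMI in CF-KI atrial cardiomyocyte-like nuclei the same difference was not measurable there. The unnamed mitochondrial cluster, in which 11 of the 12 cardiomyocyte markers were raised, had 45.9 CPM in CF-KI and 35.6 in the control. Fibroblast-like nuclei had 8.89 and 3.45 CPM, which is 37.2% and 21.9% of the level over all cardiomyocyte-like nuclei, atrial ones included. The medians of the cardiomyocyte markers in these nuclei were 29.8% and 11.3%.

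Gata4 and Gata6 encode zinc finger factors that partly stand in for each other in heart muscle. Gata6 (chromosome 18, 11052064 to 11085635) was highest in endocardial-like nuclei, at 260.6 CPM (230.9 to 293.0) in CF-KI and 321.8 CPM (288.0 to 358.4) in the control. Cardiomyocyte-like nuclei had 247.6 and 207.0 CPM and mesothelial-like nuclei 228.3 and 269.2 CPM. In CF-KI these 3 levels had overlapping intervals. In the control the endocardial-like and cardiomyocyte-like intervals did not overlap. Fibroblast-like nuclei were lower, at 104.9 and 135.5 CPM. Of the endothelial-like clusters, the one led by Ccdc85a and Bcl6b had more Gata6 than the one led by Depp1 and Rbp7, by a log2 ratio of 1.46 (0.87 to 2.06) in CF-KI and 1.499 (0.66 to 2.36) in the control. A transcript on the opposite strand, 1010001N08Rik, overlaps Gata6 and had 545 and 461 UMIs in all.

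Gata4 (chromosome 14, 63198922 to 63271692) had no single top class. Pericyte-like nuclei were first in CF-KI, at 55.5 CPM (32.4 to 88.9), and had 24.1 CPM in the control, and atrial cardiomyocyte-like nuclei had 54.3 and 44.8 CPM. Endocardial-like nuclei had 54.2 CPM (41.1 to 70.0) in CF-KI and 48.6 CPM (36.1 to 64.1) in the control. Mesothelial-like nuclei had 36.1 and 49.3 CPM and cardiomyocyte-like nuclei 43.4 and 31.5 CPM. Fibroblast-like nuclei had 51.3 CPM (43.9 to 59.5) in CF-KI and 30.3 CPM (25.2 to 36.2) in the control. In neither library did neighbours among the first 3 classes in the order of Gata4 levels separate beyond their intervals.

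Mef2c (chromosome 13, 83504034 to 83667080), a MADS-box factor used in muscle, endothelium and lymphoid cells, had its highest levels outside muscle. Macrophage-like nuclei had 598.4 CPM (551.0 to 648.7) in CF-KI and 659.4 CPM (606.1 to 716.0) in the control. Pericyte-like nuclei had 617.4 and 472.1 CPM, B cell-like nuclei 591.5 and 735.9 CPM, and endothelial-like nuclei 504.0 and 440.2 CPM. Cardiomyocyte-like nuclei were lower, at 181.9 CPM (169.5 to 195.1) and 153.3 CPM (143.3 to 164.0), and fibroblast-like nuclei had 138.0 and 115.0 CPM.

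Hand2 (chromosome 8, 57320983 to 57324633), a bHLH factor of the right ventricle and endocardium in development, showed the largest difference between the libraries in cardiomyocyte-like nuclei of the factors with at least 20 UMIs. Over all cardiomyocyte-like nuclei, atrial ones included, there were 1288 UMIs in 2485 CF-KI nuclei, or 290.6 CPM (275.0 to 306.9), and 461 in 2243 control nuclei, or 79.8 CPM (72.7 to 87.5). The log2 ratio was 1.86 (1.71 to 2.02). Of the 5030 genes with at least 200 UMIs in these nuclei, 18 (0.358%) had a higher ratio. A Hand2 UMI was found in 34.6% of CF-KI and 16.4% of control nuclei, and in 13.1% and 4.42% after thinning to 500 UMIs. In endothelial-like nuclei the shares were 3.20% and 1.33%, at median depths of 1105 and 828 UMIs.

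The Hand2 difference was spread over many nuclei: 95 CF-KI nuclei and 15 control nuclei held 3 or more UMIs, and 65.4% and 83.6% held none. It was present at each mitochondrial share examined. In nuclei with up to 1% mitochondrial UMIs Hand2 was at 358.2 CPM (291.8 to 435.3) in CF-KI and 81.5 CPM (73.8 to 89.9) in the control. Above 1% and up to 5% the levels were 297.0 and 65.5 CPM, and above 5% they were 257.2 and 83.5 CPM. Thinning to 500 UMIs gave a log2 ratio of 1.65 (1.33 to 1.98). Atrial cardiomyocyte-like nuclei had only 4 and 7 Hand2 UMIs. In CF-KI they lay below the other cardiomyocyte-like nuclei by a log2 ratio of -2.44 (-4.32 to -1.08), and in the control the ratio was -1.05 with an interval that reached equality (-2.37 to 0.01).

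Hand2 overlaps the long noncoding RNA gene Hand2os1 on the opposite strand (57281117 to 57324233) over most of its length, and because the use of strand in counting is not given, reads of the overlap may be assigned to either. Hand2os1 had 4087 and 4318 UMIs in all cardiomyocyte-like nuclei, or 922.1 CPM (894.1 to 950.8) in CF-KI and 747.9 CPM (725.7 to 770.5) in the control, a log2 ratio of 0.30 (0.24 to 0.36). Hand2 made up 24.0% (22.8 to 25.1) of the UMIs of both genes in CF-KI and 9.65% (8.82 to 10.5) in the control. In endocardial-like nuclei the pair differed in opposite directions: Hand2 was at 254.0 against 157.5 CPM, a log2 ratio of 0.69 (0.40 to 0.98), and Hand2os1 at 1029 against 1251 CPM, a log2 ratio of -0.28 (-0.40 to -0.16).

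Hand2 was also higher in CF-KI in classes where it was low. Fibroblast-like nuclei had 64.0 against 40.2 CPM, a log2 ratio of 0.67 (0.37 to 0.97), and endothelial-like nuclei 30.5 against 12.3 CPM, a log2 ratio of 1.32 (0.40 to 2.35). Pericyte-like nuclei had 55.5 against 8.05 CPM from 17 and 3 UMIs, and adipocyte-like nuclei 59.5 against 3.57 CPM from 10 and 1. By point value the pericyte-like and adipocyte-like differences were larger than that in cardiomyocyte-like nuclei. With at most 5% mitochondrial UMIs the intervals of Hand2 spanned equality in fibroblast-like nuclei, at 1.08 (-0.42 to 2.29), and in endocardial-like nuclei, at 0.98 (-0.03 to 1.86). They lay above equality in endothelial-like nuclei, at 2.59 (1.5 to 3.78), and in mesothelial-like nuclei, at 1.48 (0.34 to 2.57). The same held in macrophage-like nuclei, at 4.86 (3.48 to 6.58) from 30 and 5 UMIs. Pericyte-like nuclei had 6.42 (3.68 to 11.8) from 13 and 1, and adipocyte-like nuclei 4.21 (1.05 to 9.77) from 5 and 1. At that limit CF-KI kept 33 macrophage-like, 25 pericyte-like and 43 adipocyte-like nuclei. Without a mitochondrial limit, macrophage-like nuclei had 112.8 against 18.7 CPM, with a ratio of 2.59 on the log2 scale (1.83 to 3.45). Hand2os1 was higher there as well, with 313 and 68 UMIs. With 0.5 UMIs added to each count its log2 ratio was 1.99, against 0.05 in fibroblast-like and -0.50 in mesothelial-like nuclei. The cardiomyocyte markers in macrophage-like nuclei were at a median of 44.3% of their cardiomyocyte level in CF-KI against 15.04% in the control. Hand2 was at 38.8% and 23.4% of its own. The 10 macrophage markers were all lower in CF-KI, with a median log2 ratio of -1.32.

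**Figure D3:**
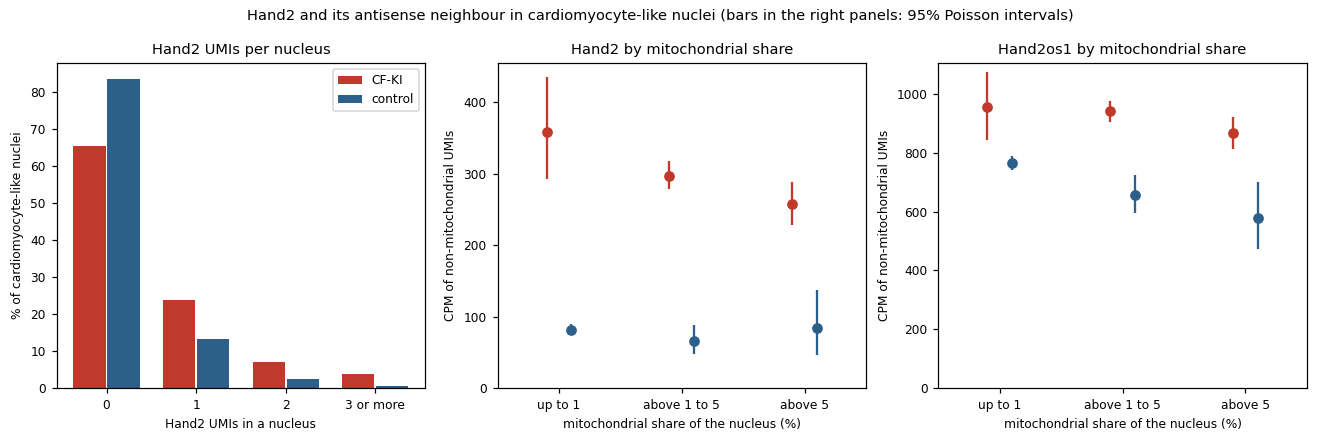
Left, share of all cardiomyocyte-like nuclei (y axis, percent) by number of Hand2 UMIs (x axis); middle and right, CPM of Hand2 and of Hand2os1 (y axes, from 0) in nuclei grouped by mitochondrial share (x axis), with 95% Poisson intervals. CF-KI is red and control blue; Hand2 is 358.2 against 81.5 CPM in nuclei with the least mitochondrial RNA.

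In all cardiomyocyte-like nuclei 8 of the 10 factors had at least 20 UMIs over both libraries, 6 with a ratio above equality and 2 below. Only Hand2 was at least 2-fold higher in CF-KI and none was 2-fold lower. Among all 12152 genes with 20 UMIs there, 9.96% were at least 2-fold higher and 1.93% at least 2-fold lower, so 1 of 8 is near the background. The median log2 ratio of the 8 factors was 0.24, and that of all 12152 genes 0.16. Gata6 had 0.24 (0.12 to 0.36), Mef2c 0.23 (0.10 to 0.37), Tbx20 0.20 (-0.02 to 0.42) and Tbx5 -0.20 (-0.54 to 0.13). TMM scaling shifted the log2 ratios of this class by -0.17, which left 0.08 (-0.04 to 0.20) for Gata6, 0.07 (-0.07 to 0.20) for Mef2c, 0.28 (-0.02 to 0.58) for Gata4 and 1.70 (1.54 to 1.85) for Hand2. Nkx2-5 had 0.60 (0.18 to 1.02) from 106 and 91 UMIs, and Gata4 0.45 (0.15 to 0.75) from 193 and 184. Median-of-ratios scaling shifted this class by -0.21, more than TMM did, and left 0.40 (-0.02 to 0.82) for Nkx2-5. The Gata4 direction did not hold after thinning to 500 UMIs, where the log2 ratio was -0.24 (-0.87 to 0.39).

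In fibroblast-like nuclei, the cells named as the site of NLRP3 activation, all 10 factors had at least 20 UMIs, with 7 higher and 3 lower in CF-KI. Nkx2-5 alone was at least 2-fold higher, with a log2 ratio of 1.37 (0.41 to 2.40) from 30 and 14 UMIs, and none was 2-fold lower. In the Rgs17 and Dnm3os cluster Nkx2-5 was level, at 6.98 CPM (13 UMIs) in CF-KI and 7.02 (10 UMIs) in the control. In the Myoc and Pi16 cluster it was at 11.2 CPM (17 UMIs) against 1.52 (4 UMIs). After thinning to 500 UMIs the Nkx2-5 ratio was 0.95 (-0.28 to 2.28). Among all 12615 genes 5.53% were 2-fold higher and 2.66% 2-fold lower. The median was 0.15 for the factors and -0.02 for all genes. Gata4 was higher, with 173 and 123 UMIs and a log2 ratio of 0.76 (0.42 to 1.10), but only 1 CF-KI UMI remained with at most 5% mitochondrial UMIs per nucleus, where the ratio was -0.80 (-6.14 to 1.77). Gata6 was lower, at -0.37 (-0.57 to -0.17), and Mef2c higher, at 0.26 (0.07 to 0.45), or 0.26 (-0.01 to 0.54) after thinning. Tbx18 was at -0.10 (-0.46 to 0.24).

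In endocardial-like nuclei 7 factors had at least 20 UMIs, 4 higher and 3 lower. Wt1 alone was at least 2-fold higher, at 28.0 against 10.7 CPM from 30 and 11 UMIs, a log2 ratio of 1.39 (0.35 to 2.54), or 1.34 (-0.04 to 2.87) in nuclei with at least 500 genes. Among 9973 genes of the class, 6.31% were 2-fold higher and 3.18% 2-fold lower. Mef2c was higher, at 320.3 against 210.0 CPM and a log2 ratio of 0.61 (0.36 to 0.86). Gata6 was lower, at -0.30 (-0.54 to -0.07), but with at most 5% mitochondrial UMIs, where 33 CF-KI nuclei remained, its ratio was 0.02 (-0.88 to 0.80). The 6 endocardial markers were all lower in CF-KI, with a median log2 ratio of -0.73.

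In mesothelial-like nuclei 9 factors had at least 20 UMIs, 3 higher and 6 lower, with a median of -0.24 against 0.04 over all 8721 genes. Tcf21 alone was at least 2-fold lower, from 7 and 16 UMIs, with an interval that spanned equality (-2.68 to 0.20), and none was 2-fold higher. Of all genes there, 3.25% were 2-fold lower and 6.33% 2-fold higher. In macrophage-like nuclei 8 factors had at least 20 UMIs and 4 were at least 2-fold higher in CF-KI (Tcf21, Tbx20, Gata6 and Hand2), against 9.24% of 9950 genes, and none was 2-fold lower, against 7.06%. Mef2c, for which this class was among the highest, was at -0.14 (-0.31 to 0.03).

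**Figure D4:**
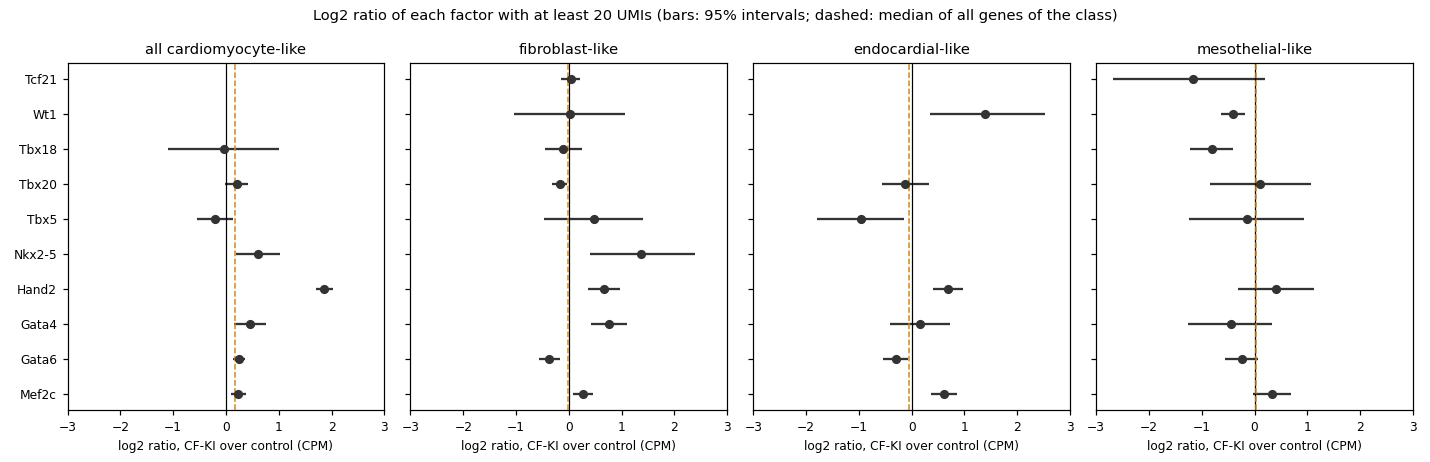
Log2 ratio of CPM, CF-KI over control (x axis), for each factor with at least 20 UMIs in a class (y axis), in 4 classes (panels), with 95% intervals; the dashed line is the median of all genes of the class. Hand2 in all cardiomyocyte-like nuclei, at 1.86, is farthest from the line among the intervals that exclude 0, and Wt1 and Tbx18 lie below 0 in mesothelial-like nuclei.

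A list of 47 other cardiac transcription factors, chosen with earlier results of these data known, was compared in the same way. In all cardiomyocyte-like nuclei 33 had at least 20 UMIs, 21 higher and 12 lower in CF-KI, 6 of them at least 2-fold higher and 3 at least 2-fold lower, against 9.96% and 1.93% of all genes there. The highest ratios were those of endothelial factors. Sox18 had 28 and 4 UMIs, Fli1 45 and 16, and Erg 15 and 6. The lowest were those of Irx5, a homeobox factor that shapes the repolarisation gradient across the ventricular wall, Tbx3, a conduction system repressor, and Hey2, a repressor found in compact ventricular muscle and in arteries. Irx5 had 38 CF-KI UMIs and 136 control UMIs, a log2 ratio of -1.46 (-2.02 to -0.93). Tbx3 had 9 and 30 UMIs, at -1.36 (-2.62 to -0.24), and Hey2 had 43 and 117, at -1.06 (-1.60 to -0.55).

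In fibroblast-like nuclei 40 of the 47 had at least 20 UMIs, 24 higher and 16 lower, 8 at least 2-fold higher and none 2-fold lower, against 5.53% and 2.66% of all genes there. The highest were the myocyte factors Irx4, at 2.27 (0.81 to 4.04) from 20 and 5 UMIs, and Myocd, at 1.64 (0.80 to 2.54), with the endothelial factor Sox18 at 1.98 (0.97 to 3.10). The lowest were Hey2, at -0.86 (-1.66 to -0.10), Tbx2, at -0.72 (-1.26 to -0.19), and Meox1, a homeobox factor of activated fibroblasts, at -0.60 (-0.89 to -0.32) from 157 and 287 UMIs. Meox1 was at 46.5 CPM in CF-KI and 70.7 in the control.

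The pattern of each factor over the 11 classes and both libraries, 22 points that share libraries and depth, was compared with that of 10992 genes with at least 200 UMIs by Pearson's r of log2(CPM + 1). Nearest to Tcf21 were Dbn1 (r = 0.92), Kcnk2 (0.87) and Serpine2 (0.86). Nearest to Wt1 were Rhpn2 (0.89), Zdbf2 (0.84) and Cldn15 (0.82). Tbx18 was nearest to Adgrl3 (0.87), Ror1 (0.86) and Gria3 (0.85), and Tbx20 to Lama2 (0.84), Pi15 (0.80) and Pdlim7 (0.79). Hand2 and Gata6 were among each other's nearest genes (0.81), and Hand2os1 was first for both, at 0.83 and 0.87. Tbx5 was nearest to 1010001N08Rik (0.86), the transcript that overlaps Gata6, then Chmp4c (0.84) and Kcnd3 (0.81). Nkx2-5 was nearest to Abcc8 (0.88), Kcnj3 (0.86) and Wnk2 (0.83), Gata4 to Stk39 (0.84), Tfpi (0.82) and Dnajc18 (0.81), and Mef2c to Arhgdib, Mgat4a and Rcsd1 (all 0.86).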

How the data were processed

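Nuclei of mouse cardiac tissue were profiled with the 10x Genomics 3′ v3 kit, per the labels. Raw UMI counts by gene and barcode are what the authors deposited; Cell Ranger 6.1.1 and the build mm10 are named in the submitters' processing notes, and the settings for introns, strand and cell calling are not given in the sources used here. Features sharing a symbol were summed. Barcodes with at least 200 genes were kept without a mitochondrial limit. Because Scrublet's automatic threshold called 2286 doublets in CF-KI and 0 in the control, the expected share with the highest scores (12.0% and 8.96%) was removed instead. Both libraries were clustered together with scanpy 1.11.5 on 2000 variable genes, without the 10 factors and 47 others, 30 principal components and 15 neighbours (leidenalg 0.10.2, resolution 0.8). Clusters were named with the ending -like from 18 marker lists when 3 or more markers exceeded the other clusters by 1 on the log2 scale and reached 5% of nuclei, and a cluster with a median mitochondrial share above 50% stayed unnamed. Shares have Clopper-Pearson intervals and log2 ratios conditional exact binomial intervals, all at 95%. Counts of genes past 2-fold use genes with at least 20 UMIs over both libraries and 0.5 UMIs added to each count. Where a count is 0, the limit is what 3 UMIs or nuclei give. Scaling alternatives used edgeR 4.0.16 (TMM) and DESeq2 1.42.0 (median of ratios) under R 4.3.3. The interval script was tested on simulated data.

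The factors, marker lists and the list of 47 were chosen with earlier results of these data known. The named genes are the 10 factors in each class, the 3 genes most like each, and the 3 highest and 3 lowest of the 47 in cardiomyocyte-like and fibroblast-like nuclei; clusters are identified by leading genes. Alternatives were a minimum of 500 genes, mitochondrial limits of 5% and 20%, no removal of doublets, clustering at resolutions of 0.4 and 1.5 or per library, thinning to 500 UMIs, TMM and median-of-ratios scaling, minimums of 1 and 100 UMIs for medians, and removal of mesothelial-like nuclei, the last chosen after seeing the data.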

Additional observations from a re-analysis of the deposited data

How the results depend on the processing

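No paired analysis was possible because each group is 1 library, and for the same reason no library could be left out. Over 38 results, 379 alternative values were computed: 347 lay within the 95% interval of the reported value, 29 lay outside it and 3 had the opposite sign of a value whose interval excluded 0. The Tcf21 level outside fibroblast-like nuclei in CF-KI was 2.20% with at most 5% mitochondrial UMIs, where 9 fibroblast-like Tcf21 UMIs remained, and 8.72% with doublets kept; in the control it was 7.80% with doublets kept. The median log2 ratio of the factors in all cardiomyocyte-like nuclei was 0.038 after thinning to 500 UMIs, 0.071 with TMM factors and 0.033 with median-of-ratios factors. The reversals were Gata4 in all cardiomyocyte-like nuclei after thinning (-0.24), and Gata4 in fibroblast-like nuclei (-0.80) and Gata6 in endocardial-like nuclei (0.018) with at most 5% mitochondrial UMIs. The scaling factors act on the class as a whole; the cause of the other shifts was not tested. The limit of 5% left 57 CF-KI fibroblast-like and 33 endocardial-like nuclei, so few UMIs stand behind its values. It left 1625 CF-KI cardiomyocyte-like nuclei, so values pooled over classes rest on another class mix.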
